A study of Mus musculus with 6 samples.

Results

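The genes described here are 44 genes of mitosis and chromosome segregation, chosen by name for what their products do. A gene was taken as measured where a probe set, the group of probes on the array that reads a transcript, was annotated to that single gene. In all, 43 of the 44 were found, on 44 probe sets of 34760, and each stood as 1 gene among 19937 tested. No probe set was annotated here to Ccnb1 (cyclin B1) alone, so it has no value.

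Mitosis begins when cyclin-dependent kinase 1 is switched on by its cyclins. Chromosomes are then condensed, attached through kinetochores to spindle microtubules, held back by the spindle checkpoint until all are attached, and pulled apart before cytokinesis splits the cell. Most of the genes involved are transcribed late in the cell cycle, under the DREAM complex in resting cells and B-MYB and FOXM1 in dividing ones, so in a cell population their transcripts act as a readout of how many cells are dividing. In a bulk sample, fewer dividing cells and less transcript per dividing cell cannot be told apart. Myeloid progenitors of the bone marrow divide often.

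The cells were pre-granulocyte-macrophage progenitors (PreGMs), sorted from bone marrow of female C57BL/6 mice as Kit-positive cells without lineage markers, Sca1, CD150, CD41, FcγRII or endoglin. All 6 mice carried Cebpa flox/flox alleles and were killed on day 18 after pIC, a synthetic double-stranded RNA that induces interferon. The 3 mice labelled flox/flox;Mx1Cre (called Mx1Cre below) carried in addition Cre recombinase under the interferon-inducible Mx1 promoter, which is not confined to blood cells, and the 3 labelled flox/flox did not. No samples with Mx1Cre but without floxed alleles are among those analysed, and the labels used here name no age. The comparison asks how the transcriptome of these progenitors changes when Cebpa, which encodes the myeloid transcription factor C/EBPα, is deleted.

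Values are log2 expression per probe set, and a difference of 1 is a doubling. They allow a gene to be compared between arrays but not 1 gene's level with another's. The 3 values of a label are given in the order of replicates 1, 2 and 3 throughout. Cebpa, the targeted gene, read 6.93, 6.71 and 6.85 in the flox/flox arrays and 8.71, 9.31 and 8.98 in the Mx1Cre arrays. It was thus higher in the arrays whose label names the deletion, by 2.17 ± 0.14 log2 units (SE, limma adjusted p = 2.65e-05), which goes against that label. Whether its probe set reads the deleted part is not known here, and whether the labels match the genotypes was not tested. Every direction below is therefore that of the arrays as labelled. Kit, which the sort required, differed by 0.15 log2 units (limma adjusted p = 0.513). Of the excluded antigens, Fcgr2b was higher in the arrays labelled Mx1Cre (0.43 log2 units, limma adjusted p = 0.041), and Slamf1, Itga2b and Eng did not pass (-0.17, -0.33 and -0.05). Fcgr3 encodes FcγRIII, which the sort described above does not name, and was lower in those arrays (-1.04 log2 units, limma adjusted p = 0.0097). Of 14 measured genes of the sort gate list, 2 were higher and 2 lower. These included Cd34 (1.01 log2 units) and Il7r (-1.13 log2 units), which the sort described above does not name. Ly6a, which encodes Sca1, had no probe set of its own. All 7 measured monocyte markers were higher in those arrays, by a median of 2.32 log2 units, and the list's median level was 6.03 to 6.31 in the flox/flox arrays and 8.59 to 8.94 in the Mx1Cre arrays. Of other markers, 5 of 7 of granulocyte progenitors (median difference 1.87, list level 6.89 to 6.93 against 8.53 to 9.65), 5 of 10 of neutrophils and 3 of 8 of mast cells and basophils were higher. Markers lower were 2 of 8 of mast cells and basophils, 2 of 10 of T and NK cells, 1 of 7 erythroid and 1 of 5 of megakaryocytes. B cells gave 0 of 7 (2 at an unadjusted p under 0.05, limma), and stem cells 1 of 6, higher. The part of these markers in the results below was not tested.

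The promoters of the mitosis genes are shown first because 2 short elements in them are known to carry the late cell cycle timing. The cell cycle genes homology region (CHR, letters TTTGAA) is bound by the DREAM and B-MYB complexes, and the CCAAT box (letters CCAAT) by NF-Y. RefSeq promoter windows on GRCm38.p6, running from 250 bases before the start of transcription to 50 after it, were present for 36 of the 44 genes, as 38 windows. Both strands were searched for exact matches, and E2F-like letters can overlap a CCAAT box read on the opposite strand, whose letters are ATTGG. The stretches below run from 105 bases before the start to 15 from it, 5′ to 3′ on the strand of the gene, with CHR and CCAAT matches of either strand in capitals. Racgap1, Kif23, Ttk and Cenpf were higher in the arrays labelled Mx1Cre, Cdk1 lay outside the threshold, and Ccnb2 and Cdc20 were among the genes that differed least.

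Racgap1, chr15:99651642-99651761 (minus strand): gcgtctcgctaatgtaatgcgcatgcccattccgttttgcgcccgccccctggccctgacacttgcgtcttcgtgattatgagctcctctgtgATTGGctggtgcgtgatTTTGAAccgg
Kif23, chr9:61946785-61946904 (minus strand): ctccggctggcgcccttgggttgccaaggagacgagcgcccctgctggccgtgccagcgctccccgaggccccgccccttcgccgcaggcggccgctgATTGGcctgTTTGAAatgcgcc
Ttk, chr9:83834584-83834703 (plus strand): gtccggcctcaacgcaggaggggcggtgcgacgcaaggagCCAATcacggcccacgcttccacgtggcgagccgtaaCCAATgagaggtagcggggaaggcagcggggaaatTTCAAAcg
Cenpf, chr1:189688072-189688191 (minus strand): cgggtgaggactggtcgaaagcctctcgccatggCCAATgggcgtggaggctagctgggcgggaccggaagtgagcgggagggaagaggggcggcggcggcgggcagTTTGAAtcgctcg
Cdk1, chr10:69352898-69353017 (minus strand): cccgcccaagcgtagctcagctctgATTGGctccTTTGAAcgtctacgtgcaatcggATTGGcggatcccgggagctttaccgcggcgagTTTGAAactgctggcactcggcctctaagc
Ccnb2, chr9:70421540-70421659 (minus strand): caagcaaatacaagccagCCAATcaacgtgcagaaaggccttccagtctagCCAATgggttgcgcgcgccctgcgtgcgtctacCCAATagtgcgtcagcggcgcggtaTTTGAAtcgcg
Cdc20, chr4:118437329-118437448 (minus strand): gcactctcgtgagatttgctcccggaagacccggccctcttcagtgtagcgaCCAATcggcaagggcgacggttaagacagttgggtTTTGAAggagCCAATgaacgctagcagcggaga

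A CHR match lay in 28 of the 38 windows (73.7%), against 17.9% of all 32851 promoter windows. In 26 of the 38 windows (68.4%) a CHR match began within 50 bases of the start, against 4.94% of all windows. CCAAT was found in 26 of the windows (68.4%, against 37.4% of all). E2F-like letters (TTGGCGC or TTCGCGC), the element of genes that act earlier in the cycle, lay in 7 (18.4%, against 3.89%). In 40 windows of DNA replication genes the order was the other way, with CHR in 12.5% and E2F-like letters in 35%, and CCAAT lay in 55%. In 72 windows of other mitosis genes, a list described below, CHR lay in 51.4%, CCAAT in 65.3% and E2F-like letters in 11.1%. A CHR match began within 50 bases of the start in 38.9% of those 72. A variant CHR (TTCGAA, which reads the same on both strands) lay in 3 of the 38 windows (7.89%, against 1.56% of all). Its share was 11.1% in the windows of other mitosis genes. Among genes measured, CHR was carried by 6 of the 7 genes with a window that rose and by 20 of the 28 that did not pass the test. Ccnb2 and Cdc20 carried it beside the start, as Racgap1 and Kif23 did, and their expression is given with the results below. A match is a description of letters and not evidence that a factor binds there.

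**Figure D1:**
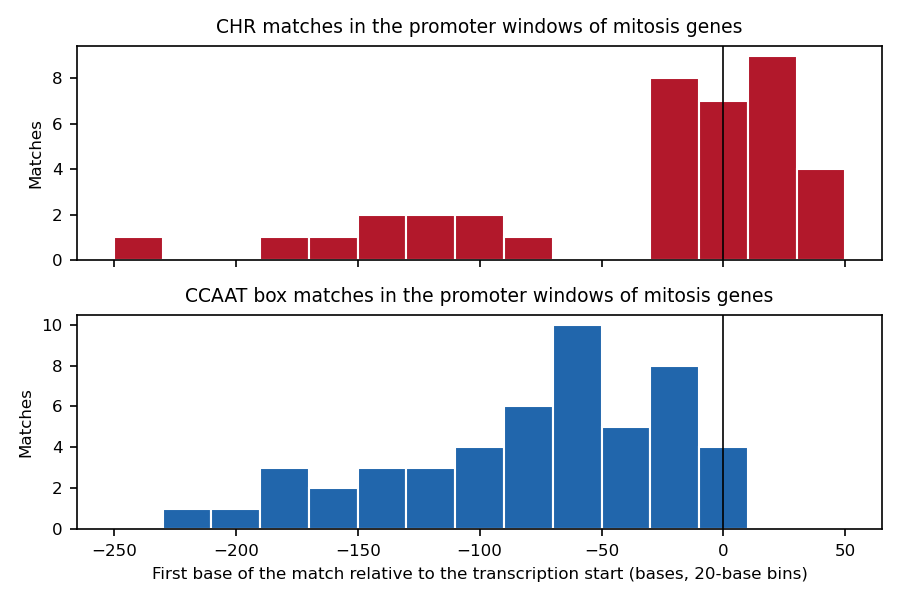
Positions of CHR (upper panel) and CCAAT (lower panel) matches in the 38 promoter windows of 36 mitosis genes; the horizontal axis is the distance of the match's first base from the start of transcription in bases, and bars count matches in bins. CHR matches gather around the start, CCAAT matches mostly before it; genes with 2 windows are counted in each.

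One array stood apart from the others in these genes. Flox/flox replicate 1 was the lowest of all 6 arrays for 42 of the 43 genes, and only Espl1 had its lowest value elsewhere, in flox/flox replicate 2. It lay below both other flox/flox arrays for 97.7% of the mitosis genes, against 33.0% of all genes. Its distance from the mean of flox/flox replicates 2 and 3 ran from -1.09 log2 units for Ccna2 to 0.15 for Espl1, with a median of -0.68. The SD over the flox/flox arrays had a median of 0.41 over the mitosis genes, against 0.09 over the Mx1Cre arrays. It was the larger of the 2 for 42 of 43 genes, against 47.0% of all genes. With replicate 1 set aside, flox/flox replicates 2 and 3 lay a median of 0.08 log2 units either side of their mean. By their medians, marker lists of other cell types did not set flox/flox replicate 1 apart in the same way. Over the 10 lists, from monocyte to stem cell and the sort gate, the median distance of flox/flox replicate 1 from the other flox/flox arrays lay between -0.15 and 0.08. Single markers moved more, from -0.71 to 0.46 among those of granulocyte progenitors and from -0.33 to 0.68 among those of mast cells and basophils. Whether the make-up of the sorted cells differed in that array was not tested.

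**Figure D2:**
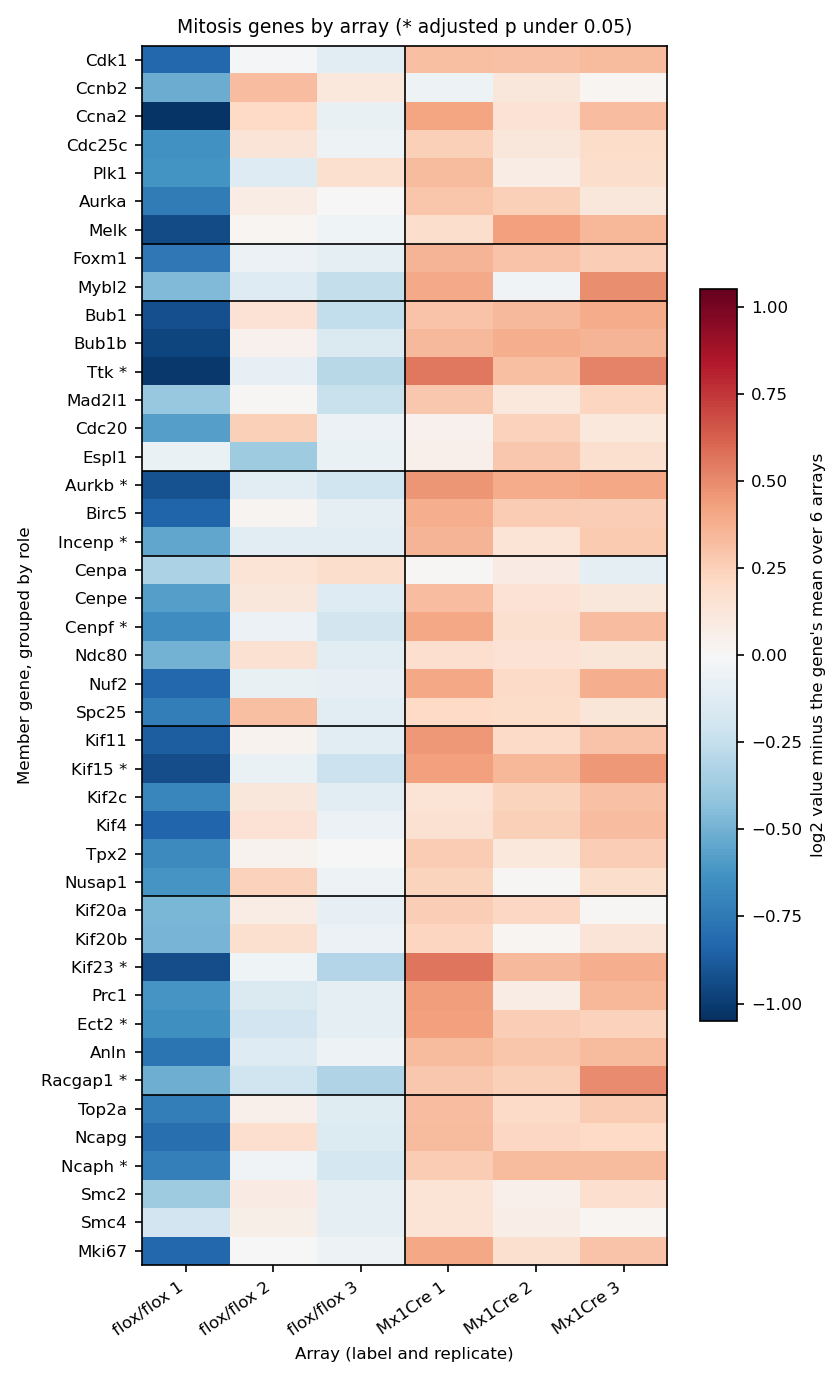
Each row is a mitosis gene, grouped by role, and each column an array; colour gives the log2 value minus that gene's mean over the 6 arrays, and an asterisk marks an adjusted p under 0.05 (limma). Flox/flox replicate 1 is the lowest array for 42 of 43 genes, and the Mx1Cre arrays differ less among themselves than the flox/flox arrays do for 42 of 43.

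Mitosis genes were higher in the arrays labelled Mx1Cre. The mean was above that of the flox/flox arrays for 43 of 43 genes, where 46.6% of all genes tested had a difference above 0; with median centring or cyclic loess between arrays Cenpa lay just below 0 and the other 42 above it. Of the 43, 9 passed the test across all genes (limma, Benjamini-Hochberg adjusted p under 0.05), or 20.9%, against 2.63% of all genes called higher and 4.91% called in either direction. None passed as lower, against 2.28% of all genes, and all 33 with an unadjusted p under 0.05 (16.4% of all genes, either direction) were higher. The median difference was 0.53 log2 units, with a range of 0.003 to 0.93, while the median over all genes was -0.01. The arrays of the labels did not overlap for 29 of the 43 genes, all higher in Mx1Cre, against 10.5% of all genes (11.0% were lower without overlap). The exact two-sided permutation test gives 0.1 for each of those 29, the smallest p that 3 against 3 arrays allow. When all 34760 probe sets were fitted and adjusted together, the probe set standing for the gene passed for 0 of the 43 (24 at an unadjusted p under 0.05, limma), while a second probe set of Top2a did pass. The count of 9 became 0 when no spread was shared between genes (1 at an unadjusted p under 0.05), where 0 of all genes were called. It was 14 with an intensity trend (32.6%, against 3.08% of all genes called higher) and 15 with array weights (34.9%, against 3.84%). It was 6 with median centring (14%, against 1.95%), where Incenp, Cenpf and Ncaph did not pass. With cyclic loess it was 7 (16.3%, against 2.85%), where Incenp and Cenpf did not.

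Without flox/flox replicate 1, the difference stayed above 0 for 41 of 43 genes, against 48.6% of all genes, and its median was 0.32 in place of 0.53. It was smaller than with all arrays for 42 genes. The genes called higher numbered 5 (1.49% of all genes were called higher in that fit and 1.22% lower), and all 5 were among the 9: Racgap1, Ttk, Kif23, Aurkb and Kif15. The arrays did not overlap for the same count of 29 genes with Mx1Cre higher (14.2% of all genes), and for 1, Cenpa, with Mx1Cre lower. The count of 29 could not change, because flox/flox replicate 1 was the highest flox/flox array for none of the 43 genes. Leaving out flox/flox replicate 3 gave 3 calls (6.98%, against 1.61% of all genes called higher in that fit), and leaving out flox/flox replicate 2 gave 10 (23.3%, against 2.14%). Among the Mx1Cre arrays, 3 calls were made when replicate 2 was left out (6.98%, against 1.6%) and 1 when replicate 3 was (2.33%, against 1.34%). Without Mx1Cre replicate 1 there was 1 call, 2.33% against 2.28% of all genes, so that the share called was close to that of all genes. Each of these fits has fewer arrays. Racgap1 was the only gene called in all 6 of these fits.

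**Figure D3:**
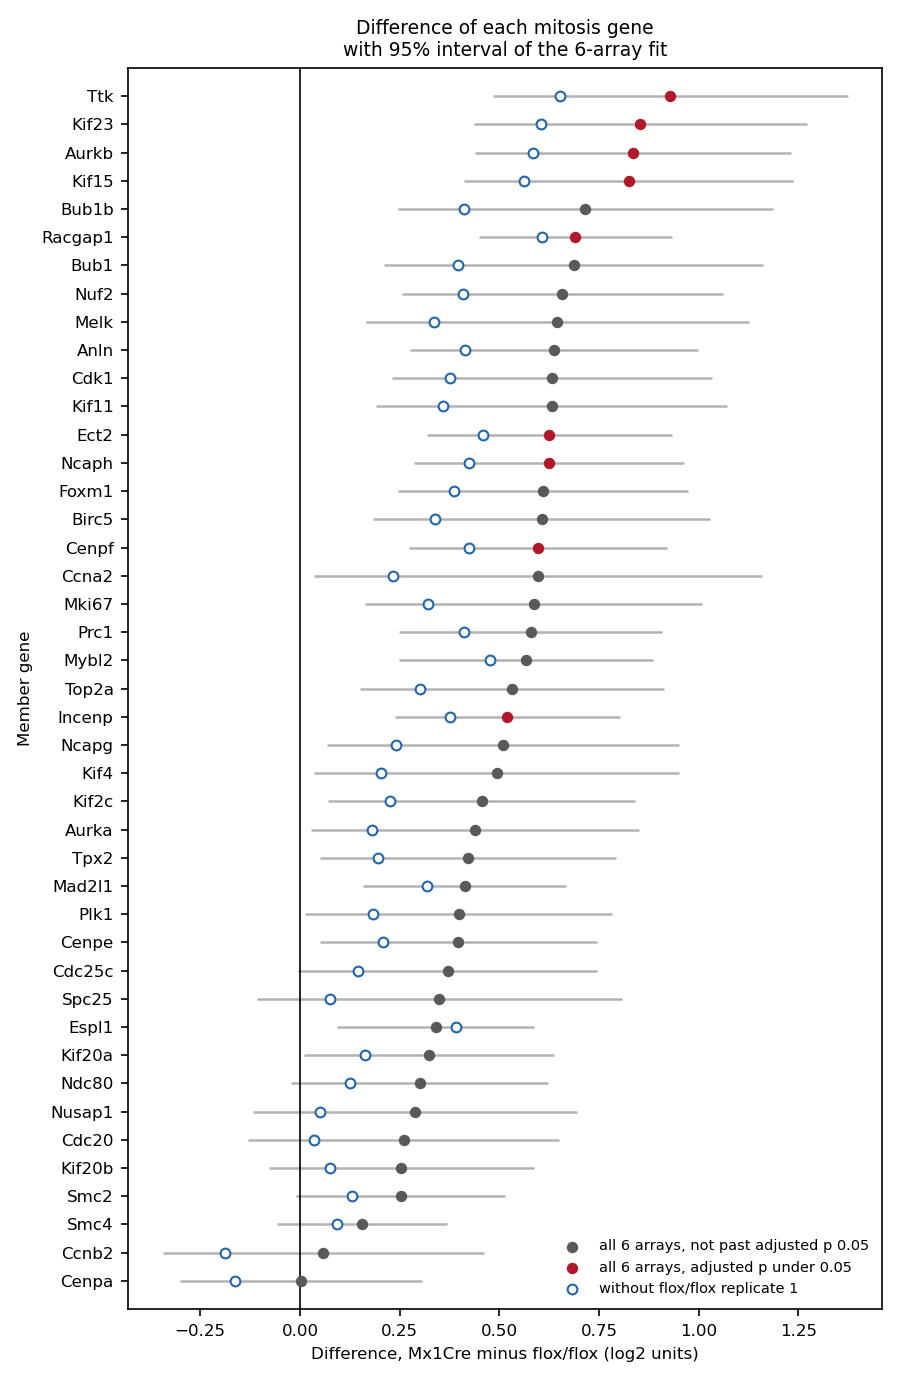
Difference of each mitosis gene, Mx1Cre minus flox/flox, in log2 units: filled points are the fit to all 6 arrays with its 95% interval (red where the adjusted p is under 0.05), open points the fit without flox/flox replicate 1. Every filled point is above 0 (Cenpa barely, and below it with median centring or cyclic loess), open points lie to the left of the filled ones except for Espl1, and those of Ccnb2 and Cenpa fall below 0.

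The chain that builds the central spindle and the cleavage furrow held 3 of the 9 genes called. Racgap1 and Kif23 encode the 2 subunits of centralspindlin, which bundles microtubules between the separating chromosomes, and Ect2 encodes the exchange factor that centralspindlin recruits to switch on RhoA at the furrow. Racgap1 read 7.05, 7.36 and 7.24 in the flox/flox arrays and 7.85, 7.81 and 8.06 in the Mx1Cre arrays. The groups lay well apart and the flox/flox arrays close together. Racgap1 rose 1.61-fold, by 0.69 ± 0.11 log2 units (SE, limma adjusted p = 0.0054), and by 0.61 without flox/flox replicate 1, where it passed again. Kif23 read 8.12, 9.0 and 8.74 in the flox/flox arrays and 9.61, 9.38 and 9.43 in the Mx1Cre arrays. It rose 1.81-fold, by 0.85 ± 0.19 log2 units (SE, limma adjusted p = 0.0298), and by 0.60 without flox/flox replicate 1, the lowest array by a wide margin, where it passed again. Ect2 read 8.01, 8.45 and 8.56 in the flox/flox arrays and 9.08, 8.91 and 8.89 in the Mx1Cre arrays. All Mx1Cre arrays were above all flox/flox arrays, and Ect2 rose 1.54-fold, by 0.62 ± 0.14 log2 units (SE, limma adjusted p = 0.0304); without flox/flox replicate 1 it was 0.46 and did not pass. Anln, the furrow scaffold anillin, and Prc1, which crosslinks antiparallel microtubules, lay just outside the threshold at 0.64 and 0.58 log2 units (limma adjusted p = 0.0545 and 0.0559), and their groups did not overlap. The kinesins of late mitosis Kif20a and Kif20b differed less, by 0.32 and 0.25, with overlapping groups.

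In the chromosomal passenger complex, which corrects faulty attachments and later moves to the central spindle, 2 of 3 genes rose. Aurkb, its kinase Aurora B, read 7.51, 8.31 and 8.22 in the flox/flox arrays and 8.89, 8.81 and 8.83 in the Mx1Cre arrays. The Mx1Cre arrays lay within a narrow band above every flox/flox array, and Aurkb rose 1.78-fold, by 0.84 ± 0.18 log2 units (SE, limma adjusted p = 0.0261), and 0.59 without flox/flox replicate 1, where it passed again. Incenp, the scaffold that binds and activates Aurora B, read 7.68, 8.11 and 8.10 in the flox/flox arrays and 8.58, 8.37 and 8.50 in the Mx1Cre arrays. It rose 1.43-fold, by 0.52 ± 0.13 log2 units (SE, limma adjusted p = 0.0455), without overlap, but passed in none of the fits that left out 1 array; without flox/flox replicate 1 it was 0.38. Its adjusted p was 0.0608 with median centring and 0.0513 with cyclic loess, in a range of 0.0261 to 0.475 over its alternatives. Birc5, or survivin, which docks the complex at centromeres, differed by 0.61 and did not pass (limma adjusted p = 0.117).

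Among 6 genes of the spindle checkpoint and anaphase, Ttk alone passed. It encodes MPS1, the kinase that starts checkpoint signalling at unattached kinetochores, and had the largest difference of the 43. Its values were 7.44, 8.37 and 8.16 in the flox/flox arrays and 9.01, 8.78 and 8.98 in the Mx1Cre arrays. Ttk rose 1.90-fold, by 0.93 ± 0.20 log2 units (SE, limma adjusted p = 0.0275), and by 0.65 without flox/flox replicate 1, where it passed again. Bub1 and Bub1b, the checkpoint proteins BUB1 and BUBR1, differed by 0.69 and 0.72 log2 units without passing (limma adjusted p = 0.114 and 0.0954), and their flox/flox arrays spread widely (SD 0.54 for each). Mad2l1, the checkpoint effector MAD2, differed by 0.41 (limma adjusted p = 0.0753). For Espl1, the protease separase that cuts cohesin, the difference was 0.34 (limma adjusted p = 0.135). Cdc20, the activator of the anaphase-promoting complex that the checkpoint restrains, differed by 0.26 with a 95% interval of -0.13 to 0.65, and by 0.04 without flox/flox replicate 1.

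The kinetochore and centromere genes ranged in their difference from 0.003 to 0.66 log2 units. Cenpf, a large kinetochore protein of late G2 phase, read 7.72, 8.31 and 8.18 in the flox/flox arrays and 8.78, 8.53 and 8.69 in the Mx1Cre arrays. Its groups did not overlap and it rose 1.51-fold, by 0.60 ± 0.15 log2 units (SE, limma adjusted p = 0.0454), and the difference was 0.42 without flox/flox replicate 1, where it did not pass. Of the 6 fits that left out 1 array, Cenpf passed in 1, and its adjusted p was 0.0567 with median centring and 0.0529 with cyclic loess, in a range of 0.0233 to 0.496 over its alternatives. The subunits of the NDC80 complex, the microtubule grip of the kinetochore, differed by 0.66 (Nuf2), 0.35 (Spc25) and 0.30 (Ndc80), none of them past the threshold (limma adjusted p = 0.0728, 0.473 and 0.346). Cenpe, a kinetochore motor, differed by 0.40. Cenpa, the histone H3 variant that marks centromeres, had the smallest difference of the 43, 0.003 ± 0.14 log2 units, with a 95% interval of -0.30 to 0.31. Its values were 8.24, 8.72 and 8.76 in the flox/flox arrays and 8.59, 8.66 and 8.48 in the Mx1Cre arrays. Apart from flox/flox replicate 1, every flox/flox array was above every Mx1Cre array, and the difference was -0.16 without that replicate.

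Of the spindle motors, Kif15 rose. It encodes a kinesin that helps keep spindle poles apart, and read 8.06, 8.92 and 8.76 in the flox/flox arrays and 9.42, 9.34 and 9.44 in the Mx1Cre arrays. The groups were separate, and the rise was 1.77-fold, by 0.82 ± 0.19 log2 units (SE, limma adjusted p = 0.0334), and 0.56 without flox/flox replicate 1, where it passed again. Kif11, the kinesin Eg5 that pushes the poles apart, differed by 0.63 and did not pass (limma adjusted p = 0.117). Kif4, a motor on chromosome arms, Kif2c, the depolymerase MCAK, Tpx2, the activator of Aurora A, and Nusap1, which bundles spindle microtubules, differed by 0.49, 0.46, 0.42 and 0.29, with adjusted p-values between 0.21 and 0.516 (limma). Of these, only Nusap1 had overlapping groups.

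Chromosome structure genes gave 1 call in 6, Ncaph, the kleisin subunit of condensin I. Ncaph read 8.02, 8.70 and 8.56 in the flox/flox arrays and 9.01, 9.07 and 9.07 in the Mx1Cre arrays. It rose 1.54-fold, by 0.62 ± 0.15 log2 units (SE, limma adjusted p = 0.0458) with no overlap, and was 0.42 without flox/flox replicate 1, where it did not pass. Ncapg, another subunit of condensin I alone, differed by 0.51 (limma adjusted p = 0.222). Smc2 and Smc4, the core ATPases that condensins I and II share, differed by 0.25 and 0.15, with 95% intervals of -0.01 to 0.52 and -0.06 to 0.37 and overlapping groups. Top2a, topoisomerase II α, which untangles sister DNA, read 10.35, 11.14 and 10.95 in the flox/flox arrays and 11.41, 11.28 and 11.35 in the Mx1Cre arrays. All Mx1Cre arrays were above all flox/flox arrays, but the difference of 0.53 ± 0.17 did not pass (limma adjusted p = 0.129). Its other probe set, dimmer at 4.99 and 5.86, differed by 0.87 and passed when all probe sets were tested together (limma adjusted p = 0.019), where the brighter one did not (limma adjusted p = 0.375). The mean of both, 0.70, passed as well. Mki67, the proliferation antigen Ki-67 that coats mitotic chromosomes, read 9.19, 10.01 and 9.96 in the flox/flox arrays and 10.42, 10.18 and 10.32 in the Mx1Cre arrays. The groups were separate, with flox/flox replicate 1 far below the rest, and the difference of 0.59 ± 0.19 did not pass (limma adjusted p = 0.132).

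None of the 7 measured genes that drive entry into mitosis passed. Cdk1, the kinase itself, read 8.50, 9.31 and 9.22 in the flox/flox arrays and 9.64, 9.63 and 9.65 in the Mx1Cre arrays. The Mx1Cre arrays were nearly alike (SD 0.011) and lay above all flox/flox arrays, and flox/flox replicate 1 was far below its partners. The difference of 0.63 ± 0.18 log2 units missed the threshold (limma adjusted p = 0.0843). Ccna2, cyclin A2, varied the most among flox/flox arrays (SD 0.65) and differed by 0.60 (limma adjusted p = 0.268), and by 0.23 without flox/flox replicate 1. Ccnb2, cyclin B2, differed by 0.06 with a 95% interval of -0.34 to 0.46, and by -0.19 without that array. Plk1, the polo-like kinase that promotes CDK1 activation, read 6.71, 7.21 and 7.51 in the flox/flox arrays and 7.68, 7.42 and 7.53 in the Mx1Cre arrays. Its groups overlapped, and the difference was 0.40 (limma adjusted p = 0.283). Aurka, the spindle pole kinase Aurora A, read 7.72, 8.53 and 8.46 in the flox/flox arrays and 8.74, 8.71 and 8.57 in the Mx1Cre arrays. Here the groups were separate by a small margin, at 0.44 (limma adjusted p = 0.263). Cdc25c, a phosphatase that activates CDK1, and the kinase gene Melk differed by 0.37 and 0.65 (limma adjusted p = 0.312 and 0.144).

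The 2 transcription factors of these genes lay near the threshold. Foxm1 read 6.69, 7.38 and 7.34 in the flox/flox arrays and 7.80, 7.74 and 7.70 in the Mx1Cre arrays. Its difference was 0.61 ± 0.16 log2 units (SE, limma adjusted p = 0.0668), without overlap. Mybl2, which encodes B-MYB, read 7.42, 7.75 and 7.63 in the flox/flox arrays and 8.28, 7.85 and 8.37 in the Mx1Cre arrays. The groups did not overlap, and the difference was 0.57 ± 0.14 log2 units over all arrays (limma adjusted p = 0.0528) and 0.48 without flox/flox replicate 1. It spread more among the Mx1Cre arrays, where replicate 2 was low. It passed without Mx1Cre replicate 2 (0.73) and in 4 of the 9 limma alternatives that kept all arrays, and its adjusted p-values over all the alternatives ran from 0.0112 to 0.475.

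Most other mitosis genes lay in the same direction, with a difference above 0 for 69 of 74. Of these 74, measured from a longer list of 77, 10 rose and 0 fell (13.5% higher), with a median of 0.37 log2 units. They were led by Cenpi, of the inner kinetochore (1.56-fold, limma adjusted p = 0.0053), Lmnb1, lamin B1 of the nuclear envelope (1.48-fold, adjusted p = 0.0077), and Arhgap11a (1.66-fold, adjusted p = 0.0109). Flox/flox replicate 1 was below both other flox/flox arrays for 66 of the 74, and without it 8 rose and the median was 0.20. Of 43 DNA replication genes 13 rose and 0 fell (30.2% higher), led by Uhrf1, Tk1 and Mcm10 (1.61-fold, 1.58-fold and 1.62-fold), with a median of 0.41 in place of 0.53. The same array was below its partners for 42 of those 43, by a median of -0.37 in place of -0.68 for the mitosis genes, and without it 3 rose and the median was 0.26. Whether the lists differ from each other was not tested.

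The anaphase-promoting complex, which marks cyclins and securin for destruction, and cohesin, which holds sister chromatids together, had medians near that of all genes. Of 17 genes of the anaphase-promoting complex and its partners, Anapc15 rose (1.30-fold, limma adjusted p = 0.0409) and 0 fell, with a median of 0.0038. It did not pass without flox/flox replicate 1. Of 11 cohesin genes 0 passed (2 at an unadjusted p under 0.05, limma), with a median of -0.01. Among 19 E2F, pocket protein and DREAM genes, 2 rose and 2 fell. E2f8 and E2f1 rose 1.49-fold and 1.29-fold (limma adjusted p = 0.014 and 0.0412), while Rbl2, the pocket protein p130 of the DREAM complex, and Tfdp2, an E2F partner, were 1.38-fold and 1.30-fold lower (limma adjusted p = 0.022 and 0.0283). None of these 4 was called without flox/flox replicate 1. Among 14 G1 cyclins and inhibitors of cell division, Ccnd1 (cyclin D1) was 2.13-fold higher, and Btg2, an antiproliferative gene, and Cdkn1b, the inhibitor p27, were 2.14-fold and 1.36-fold lower (limma adjusted p = 0.00085, 0.0016 and 0.0359). Without flox/flox replicate 1, 1 was higher and 1 lower. The list had a median of -0.0017, and flox/flox replicate 1 was below its partners for 5 of the 14. That array was below both partners for 12 of the 17 genes of the anaphase-promoting complex list and 5 of the 11 cohesin genes. For the E2F, pocket protein and DREAM genes it was 13 of the 19, against 33.0% of all genes.

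**Figure D4:**
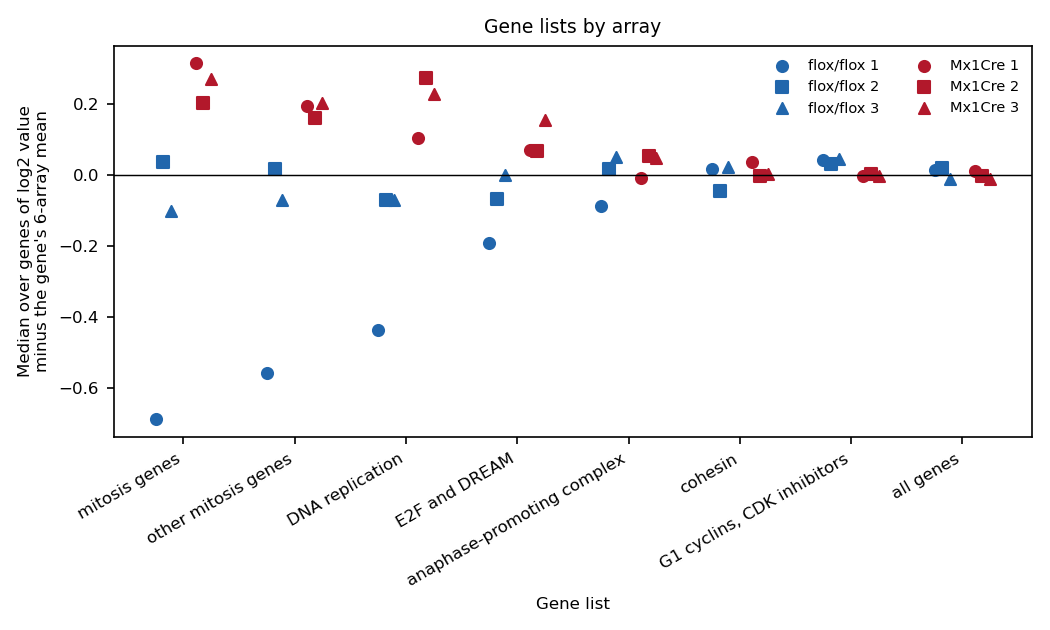
For each gene list on the horizontal axis, points give the median over its genes of the log2 value minus the gene's 6-array mean, 1 point per array (blue flox/flox, red Mx1Cre, shape by replicate). Flox/flox replicate 1 is at -0.69 for the mitosis genes, -0.56 for the other mitosis genes and -0.44 for DNA replication. It is at -0.19 for E2F and DREAM and -0.09 for the anaphase-promoting complex, and near 0 for cohesin, G1 genes and all genes.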

How the data were processed

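Expression was measured on 6 Affymetrix arrays, 1 per mouse, from amplified RNA of sorted PreGMs. The deposited log2 values were made with RMA and affy, per the submitters' processing notes; their versions, the chip definition and the genome build were not given in the sources used. RMA as a rule quantile normalizes arrays, and it compresses dim probe sets, which understates their folds. Of 34760 probe sets, 21640 had 1 gene symbol in GEO's platform annotation, 1321 several and 11799 none; 21553 matched the GRCm38.p6 RefSeq gene table by Entrez number, and 0 symbols changed. The probe set of highest mean stood for each of 19937 genes.

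Differences, Mx1Cre minus flox/flox, went through lmFit and eBayes of limma 3.58.1 (R 4.3.3) over all genes, Benjamini-Hochberg adjusted, called under 0.05. No set test was run. On simulated data with 200 genes changed among 19937, that test found 41.8% of the 67 with a shift of 0.5 log2, 89.6% of the 67 shifted by 1 and 100% of the 66 shifted by 2; unchanged genes gave 4 calls. The simulated noise was independent between genes and equal in spread between labels, which was not so for the mitosis genes above. The simulated shares may therefore not hold for them. Promoters came from RefSeq. No filter on low values was applied, so all 43 measured genes were tested. No batch or scan date was used.

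Alternatives were a replicate block, leaving out each array, 2 other normalizations, 2 filters on dim genes, other probe set choices, 3 other variance models and a threshold of 0.1. The genes, lists and tests were chosen with earlier results of these data known. Genes given array by array are those called, 8 fixed regulators and markers where measured, and those of smallest and largest difference. Genes named from other lists are up to 3 called genes per direction of smallest p. From markers they are Kit, the excluded antigens, and Fcgr3, Cd34 and Il7r of the sort gate list. The number of arrays limits the precision.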

Additional observations from a re-analysis of the deposited data

How the results depend on the processing

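The count of 9 mitosis genes higher was 14 among genes above the median level (33.3%, against 5.74% of all genes called higher). With an intensity trend and robust prior the count was 14 (32.6%, against 3.08%), and with array weights 15 (34.9%, against 3.84%). At an adjusted p under 0.1 the count was 17, where 774 of 19937 genes were called higher. It was 0 by the probe set standing for each gene when all probe sets entered limma (24 at an unadjusted p under 0.05; the second probe set of Top2a passed) and 0 when no spread was shared between genes (1 at an unadjusted p under 0.05), and 1 to 10 when an array was left out. The count lower was 0 in every setting. Of all genes, 525 higher and 454 lower became 141 and 103 with all probe sets, and 0 and 0 with no shared spread. These counts became 268 to 455 and 226 to 359 without 1 array, and 774 and 692 at the looser threshold. Cebpa kept its difference of 2.17 but not its call with no shared spread (adjusted p = 0.270, in a range from 3.81e-06). The median difference of the mitosis genes ran from 0.32 to 0.68 without 1 array. Cenpa changed sign with median centring (-4e-04), cyclic loess (-0.0023) and array weights (-0.0661), and ran from -0.16 to 0.10 without 1 array; Ccnb2 ran from -0.19 to 0.23. With the replicate block 9 mitosis genes were higher again (602 higher and 487 lower of all genes), with Incenp and Cenpf lost and Melk and Anln gained. Same-numbered arrays correlated in their deviations at 0.188, 0.0515 and 0.174. Pairs of different numbers ran from -0.2452 to 0.124, the highest being Mx1Cre replicate 2 with flox/flox replicate 3. Whether arrays of the same number share more than that number was not tested. The cause of these changes was not tested, beyond the fewer arrays of the fits that leave 1 out. The number of arrays and their signal over background limit the precision.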

Other observations

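Within the arrays labelled Mx1Cre, genes of mitosis and of DNA replication ranked the replicates differently. Mx1Cre replicate 1 was the highest of its label for 28 of 43 mitosis genes and the lowest for 35 of 43 DNA replication genes. Mx1Cre replicate 2 was the lowest for 23 of the 43 mitosis genes and the highest for 30 of the 43 DNA replication genes. Over all genes, Mx1Cre replicate 1 was the highest for 7596 of 19937 and the lowest for 7440. The shifts are small: the median deviation from the mean of the label was 0.06 for the mitosis genes and -0.10 for the DNA replication genes in replicate 1, and -0.05 and 0.07 in replicate 2. Among the flox/flox arrays, replicate 1 was the lowest for 42 of 43 genes in both lists. The difference between the lists was not tested.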
